A study of Mus musculus with 15 samples.

Results

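The genes described here are 48 genes that license origins of DNA replication, run the replication fork, supply it with nucleotides or copy DNA methylation behind it. They were chosen by name and function, not by a measured value, from the 18193 genes tested on 15 Affymetrix mouse arrays, and each is represented by the probe set of its symbol with the highest mean over all arrays. Earlier results of these data were known when the 48 genes were chosen. By role, 15 belong to origin licensing, 17 to helicase activation and the fork, 9 to the polymerases and primase, 5 to nucleotide supply and 2 to methylation maintenance. All 48 were measured, and none was lost to a filter on low values because none was applied.

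The arrays measured RNA of mammospheres, balls of cells that grow from tumour cells kept from attaching. All 5 groups were started from primary tumours of the mammary gland. The mice were FVB/N and carried the genotype WAPCre-DNbcatn;HGF. The spheres were grown for 7 days and then treated for 24 h, and controls and treated cultures share all these alleles. In WAPCre the recombinase is driven by the promoter of a milk protein, which is active in the secretory epithelium of the mammary gland, and HGF is the ligand of the receptor MET. The ages of the mice, whether tumours were pooled and the doses are not given in the sources used here.

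A first set of 9 arrays (title code JAH) holds 3 arrays each of DMSO, PHA and ICG, and a second set of 6 arrays (title code JHO) holds 3 arrays each of DMSO and PHA+ICG. The series text speaks of inhibitors of the Wnt and MET pathways. The labels give only these abbreviations. As background, PHA is a prefix of MET kinase inhibitors and ICG a prefix of an inhibitor of transcription driven by β-catenin. Each treatment was compared with DMSO of its own set, which asks how far expression of the replication machinery differs after treatment. The labels do not say whether the 3 arrays of a group came from separate cultures, so p-values measure only how far these arrays differ, possibly for technical reasons, and the number of arrays limits the precision.

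In a dividing cell the origin recognition complex binds origins, and Cdc6 and Cdt1 load the Mcm helicase onto them before S phase, a step that geminin blocks once S phase has begun. Cdc45 and the GINS complex then turn the loaded helicase on, primase and the polymerases copy both strands, and ribonucleotide reductase and thymidine kinase provide the deoxynucleotides. Many of these genes are transcribed in a wave before S phase through E2F sites in their promoters, so their RNA is commonly read as a sign of cells in or near S phase.

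Promoter sequences are shown for members with large ICG differences and for members without, since E2F letters lie in both. Windows from 250 bases before to 50 bases after the start were taken from RefSeq (GRCm38.p6), and 40 of the 48 members matched. Not matched were Gmnn, Mcm4, Gins1, Gins2, Gins4, Rfc2, Prim2 and Pole. Both strands were searched for the E2F letters TTTGGCGC, TTTCGCGC, TTTCCCGC and TTTGCCGC, whose matches can overlap one another, and for CCAAT and TTTGAA. In the stretches below, printed 5′ to 3′ on the strand of the gene, the E2F letters are in capitals on whichever strand they match. The stretch of Mcm6 is chr1:128359715-128359845 (minus strand), that of Mcm5 chr8:75109326-75109397 (plus strand), that of Cdc6 chr11:98907983-98908050 (plus strand) and that of Uhrf1 chr17:56304098-56304165 (plus strand). These 4 genes are among the 6 with the largest differences with ICG. The stretch of Orc1, whose probe set did not pass the test in any comparison and which holds a match all the same, is chr4:108579397-108579453 (plus strand). The stretch of Orc5, which rose with ICG, is chr5:22550339-22550438 (minus strand) and holds none of these letters.
Mcm6: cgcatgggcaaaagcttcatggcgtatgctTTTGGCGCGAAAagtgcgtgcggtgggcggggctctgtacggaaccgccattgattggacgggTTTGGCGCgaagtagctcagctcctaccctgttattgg
Mcm5: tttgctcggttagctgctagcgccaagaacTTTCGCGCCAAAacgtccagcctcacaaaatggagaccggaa
Cdc6: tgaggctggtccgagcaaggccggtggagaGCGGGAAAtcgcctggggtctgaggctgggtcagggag
Uhrf1: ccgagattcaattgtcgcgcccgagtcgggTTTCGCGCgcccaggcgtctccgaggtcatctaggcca
Orc1: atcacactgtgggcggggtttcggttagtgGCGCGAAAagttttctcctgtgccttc
Orc5: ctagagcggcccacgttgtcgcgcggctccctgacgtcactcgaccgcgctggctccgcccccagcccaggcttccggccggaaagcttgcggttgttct

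An E2F match lay in the windows of 17 of the 40 matched members (42.5%), against 550 of the 14452 genes tested on the arrays that had a window (3.81%) and 704 of all 27025 genes with a window (2.6%). By role it lay in 8 of 13 licensing genes, 3 of 13 fork genes, 4 of 7 polymerase genes, 0 of 5 nucleotide genes and both methylation genes. A gene with several starts has several windows and was counted when any of them held a match. Uhrf1 has 2 windows and Dnmt1 3, and in each gene the E2F letters lie in a single window. Among members the share was 44.8% (13 of 29) for those that fell with ICG and 36.4% (4 of 11) for the others. Rrm2 and Tk1, both among the 5 largest differences with ICG, have no match in their windows. CCAAT lay in 62.5% of members and 42.0% of the tested genes, and TTTGAA in 15% and 15.7%. A match is a description of these letters and not a bound site, and its absence says nothing of the factor.

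Values are log2 expression as deposited, on which a difference of 1 is a doubling, and a gene was called at a limma adjusted p under 0.05 over all 18193 genes. The arrays of the second set spread more than those of the first, with a median residual SD of 0.236 against 0.107, so each set was fitted alone. Arrays numbered 1 of the second set stood apart: averaged over 12 leukocyte markers, the mean level was 9.35 on that DMSO array against 7.74 and 7.62, and 8.40 on that PHA+ICG array against 6.93 and 6.89. Over 12 epithelial markers the level was 8.91 on PHA+ICG array 1 against 7.79 and 7.76, and in the first set it lay between 8.41 and 8.50 in every group. In the first set DMSO array 1 had the lowest value of its group for 36 of the 48 members and array 3 the highest for 35, against 29.8% and 25.8% of all genes. PHA array 1 had the highest value of its group for 34 members and array 3 the lowest for 35. The difference in Actb between its 3′ and 5′ probe sets, a sign of RNA quality, was 0.34 to 0.58 for DMSO, 0.49 to 0.60 for PHA, 0.55 to 0.68 for ICG, 0.50 to 0.71 for DMSO of the second set and 0.49 to 0.78 for PHA+ICG. Its part in the results was not tested.

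ICG was accompanied by lower RNA of most of the replication machinery. Of the 48 members 35 fell, 2 rose and 11 did not pass the test, where 15% of all genes tested were called lower and 11.9% higher. The median fold change was -0.70 for the members and 0.03 for all genes. For 39 members all 3 ICG arrays lay below all 3 DMSO arrays, as they did for 20.4% of all genes, and for Orc2 and Orc5 all lay above, as for 20.2% of all genes. Averaged over the 48 members, DMSO arrays lay between 8.15 and 8.38 and ICG arrays between 7.43 and 7.52. The differences were not of 1 size: they ran from -3.24 for Rrm2 to 0.55 for Orc5.

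**Figure D1:**
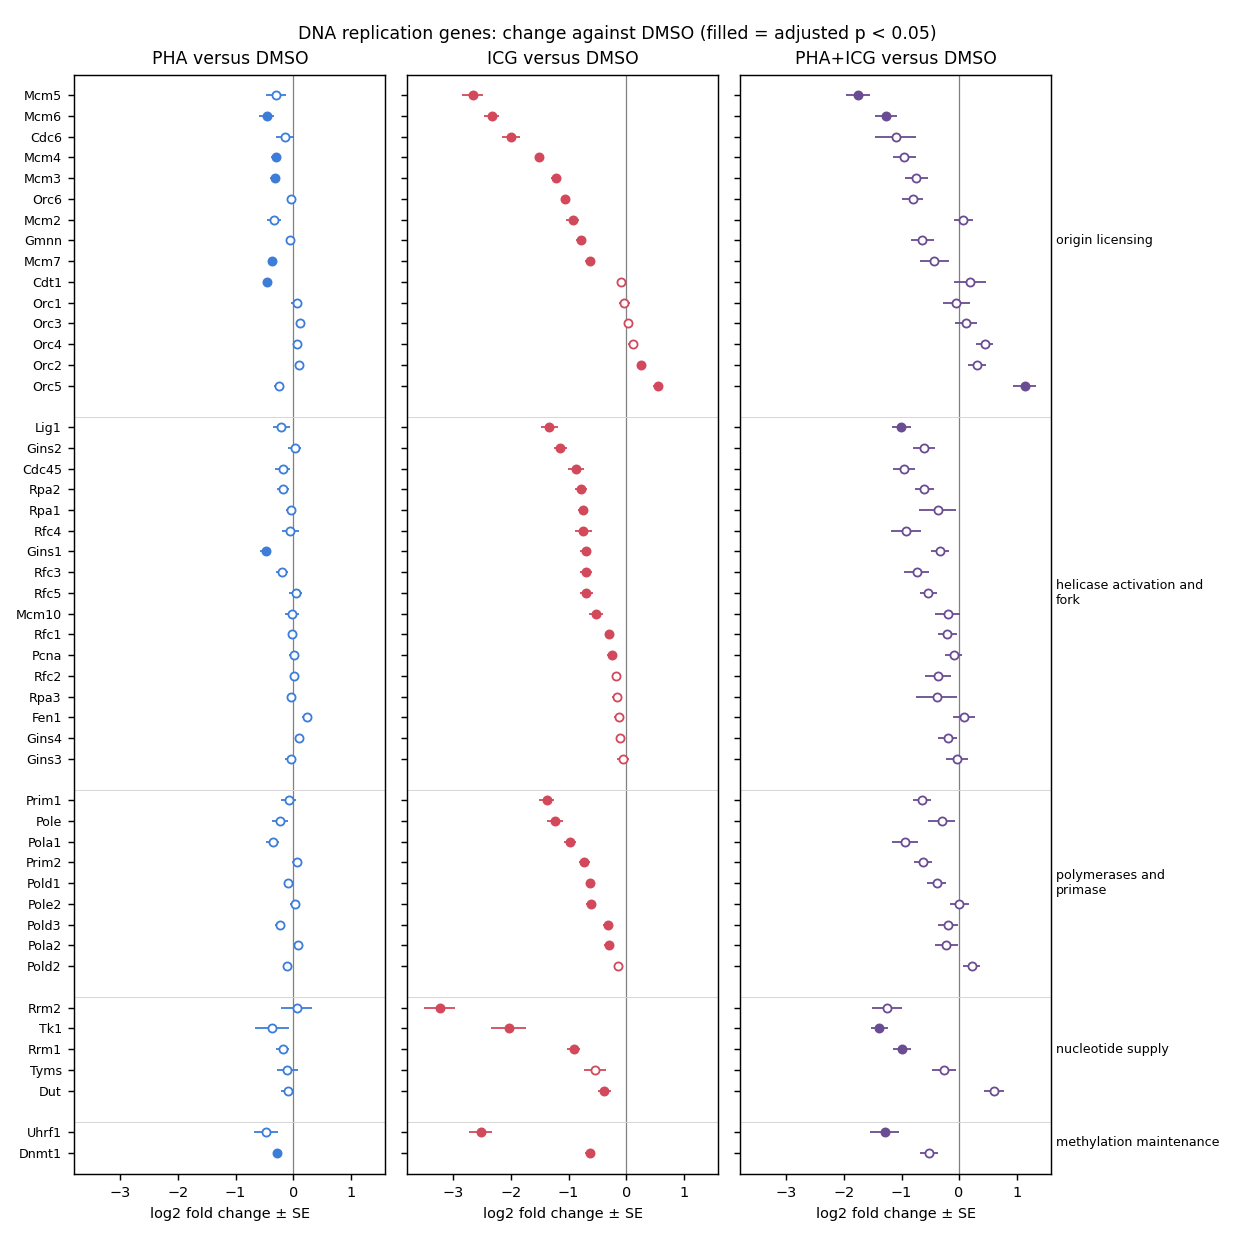
Log2 fold change (x axis, with SE) of each of the 48 replication genes against DMSO of its own set, for PHA, ICG and PHA+ICG, grouped by role and ordered by the ICG value; filled points have an adjusted p under 0.05. With ICG 35 genes are filled on the lower side and Orc2 and Orc5 on the higher side; with PHA 7 are filled and with PHA+ICG 7.

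All 6 subunits of the Mcm helicase, which is loaded at origins and unwinds the DNA, fell with ICG, with a median of -1.37. Mcm5 read 8.02, 8.21 and 8.44 on the DMSO arrays, 8.16, 7.84 and 7.79 with PHA, and 5.97, 5.39 and 5.32 with ICG. The ICG arrays lay far below both other groups, which overlapped each other. The fold change was -2.67 ± 0.18 (SE, n = 3 arrays a group, limma adjusted p = 1.18e-05), a 6.35-fold lower level. A second probe set of Mcm5 gave -2.02, while the dimmest of the 3, with a mean level of 3.89, gave 0.34, and the mean of the 3 gave -1.45.

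Mcm6 read 8.17, 8.24 and 8.35 with DMSO, 8.02, 7.75 and 7.60 with PHA, and 6.12, 5.68 and 5.95 with ICG. The 3 groups did not overlap and lay in that order. With ICG its fold change was -2.34 ± 0.13 (limma adjusted p = 3.71e-06), a 5.05-fold lower level. Mcm4 read 10.01, 10.03 and 10.10 with DMSO and 8.57, 8.58 and 8.48 with ICG, a fold change of -1.51 ± 0.07. Mcm3 read 8.88, 8.91 and 9.00 with DMSO and 7.72, 7.59 and 7.81 with ICG, a fold change of -1.23 ± 0.09. In both genes the arrays of a group lay close together and the groups were well apart.

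Mcm2 and Mcm7 differed least among the 6. Mcm2 read 9.31, 9.56 and 9.86 with DMSO and 8.65, 8.67 and 8.62 with ICG, and fell by 0.93 ± 0.12. Mcm7 read 10.10, 10.18 and 10.25 with DMSO and 9.57, 9.58 and 9.47 with ICG, and fell by 0.64 ± 0.08. Both groups of arrays were separate for both genes, and the limma adjusted p was 0.000324 for Mcm2 and 0.000268 for Mcm7.

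The origin recognition complex, which marks where the helicase is loaded, did not move as the helicase did. Of its 6 subunits 1 fell with ICG, 2 rose and 3 did not pass the test, with a median of 0.08. Orc6 read 8.16, 8.33 and 8.34 with DMSO and 7.24, 7.18 and 7.22 with ICG, a fold change of -1.06 ± 0.06 (limma adjusted p = 7.92e-06). Its ICG arrays were nearly equal and all about 1 unit below the controls. Orc5 moved the other way, with 7.96, 7.93 and 8.01 for DMSO and 8.32, 8.61 and 8.61 for ICG, a fold change of 0.55 ± 0.08 (limma adjusted p = 0.000953). Orc2 read 8.19, 8.26 and 8.15 with DMSO and 8.42, 8.46 and 8.51 with ICG, a smaller difference of 0.26 ± 0.06 (limma adjusted p = 0.00818), and its call was lost when its 3 probe sets were averaged (0.15, adjusted p = 0.183). In Orc5 and in Orc2 the ICG arrays lay above every DMSO array.

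Orc1, Orc3 and Orc4 had ICG fold changes of -0.03, 0.03 and 0.12, none past the test. Orc1 is the largest subunit of the complex, and its value depends on the probe set. The probe set used read 6.21, 6.20 and 6.37 with DMSO and 6.44, 6.13 and 6.13 with ICG, overlapping groups. A dimmer second one gave -0.57, and the mean of both gave -0.30 with a limma adjusted p of 0.0152.

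**Figure D2:**
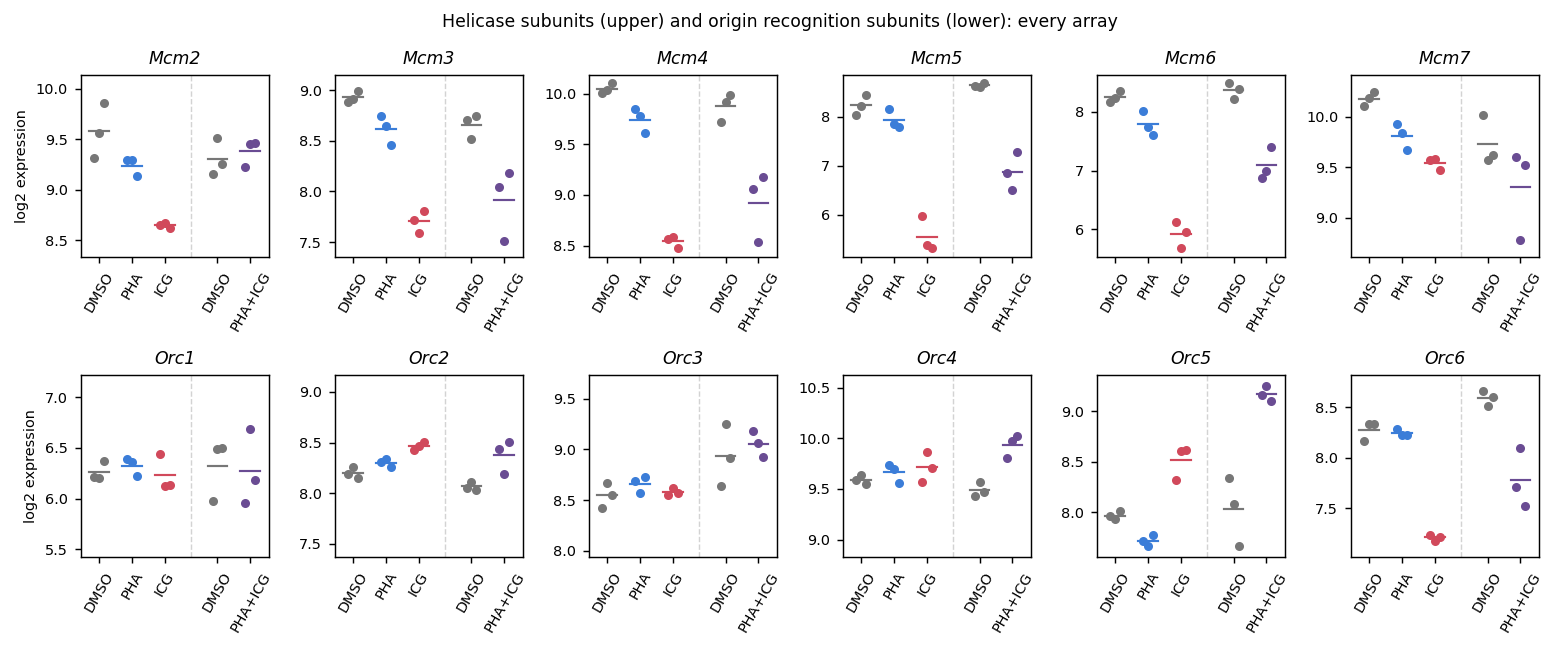
Log2 expression (y axis, each panel with its own range) on every array for the 6 Mcm helicase subunits (upper row) and the 6 origin recognition subunits (lower row); points are arrays, bars are group means, and a dashed line parts the first set from the second. The ICG arrays lie below all DMSO arrays in the 6 upper panels, and in the lower row below them for Orc6 and above them for Orc2 and Orc5.

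The loading factors also differed from each other. Cdc6, the ATPase that loads the helicase together with the origin recognition complex, read 6.27, 6.39 and 6.63 with DMSO, 6.54, 6.09 and 6.22 with PHA, and 4.72, 4.17 and 4.39 with ICG. Its ICG fold change was -2.0 ± 0.16 (limma adjusted p = 2.41e-05), a 4.0-fold lower level, with no ICG array near the controls. Cdt1, its partner in loading, read 10.63, 10.67 and 10.76 with DMSO and 10.57, 10.68 and 10.55 with ICG. Those groups overlapped, and the difference of -0.09 ± 0.07 did not pass the test (limma adjusted p = 0.402). Geminin (Gmnn), the inhibitor of Cdt1, fell by 0.79 with ICG.

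Of the 17 genes of helicase activation and the fork 12 fell with ICG and 5 did not pass the test, with a median of -0.69. Lig1, the ligase that joins Okazaki fragments, read 7.14, 7.40 and 7.54 with DMSO and 6.25, 5.79 and 6.05 with ICG, a fold change of -1.33 ± 0.14 (limma adjusted p = 0.00012). Gins2, a subunit of the GINS complex, read 7.82, 8.06 and 8.22 with DMSO and 6.96, 6.85 and 6.86 with ICG, a fold change of -1.14 ± 0.11. Cdc45, which joins Mcm and GINS in the active helicase, read 7.03, 7.13 and 7.42 with DMSO and 6.48, 6.14 and 6.33 with ICG, a fold change of -0.87 ± 0.14. None of these groups overlapped.

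The 4 GINS subunits act as 1 complex but their RNAs did not all pass the test. Gins1 and Gins2 fell, while Gins3 (-0.06 ± 0.10) and Gins4 (-0.11 ± 0.06) were not called. Gins3 read 6.40, 6.26 and 6.56 with DMSO and 6.18, 6.42 and 6.45 with ICG, and the groups overlapped. Pcna, the sliding clamp, read 12.26 to 12.31 with DMSO and 11.95 to 12.08 with ICG, and it fell by 0.25 ± 0.07. Of the clamp loader Rfc1, Rfc3, Rfc4 and Rfc5 fell by 0.31 to 0.74 and Rfc2 was not called, and of the single-strand binding protein Rpa1 and Rpa2 fell by 0.74 and 0.79 and Rpa3 was not called. Mcm10 fell by 0.52. With the mean of all probe sets Mcm10 was at -0.21 and no longer called (limma adjusted p = 0.0545), and Cdc45 was at -0.35 and still called. Fen1, the flap nuclease that works beside Lig1, had a fold change of -0.13 that did not pass the test, while a second, dimmer probe set of Fen1 gave -0.69, and -0.79 with PHA+ICG.

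Of the 9 polymerase and primase genes 8 fell with ICG, with a median of -0.63, and Pold2 (-0.14 ± 0.07) was not called. Prim1, the catalytic subunit of primase, read 7.56, 7.82 and 8.11 with DMSO and 6.49, 6.47 and 6.39 with ICG, a fold change of -1.38 ± 0.13 (limma adjusted p = 5.45e-05). Pole, the catalytic subunit of the leading-strand polymerase, read 6.09, 6.43 and 6.73 with DMSO and 5.27, 5.12 and 5.15 with ICG, a fold change of -1.24 ± 0.14. Pola1, the catalytic subunit of polymerase alpha, read 6.91, 7.26 and 7.27 with DMSO and 6.10, 6.14 and 6.26 with ICG, a fold change of -0.98 ± 0.11. In all of these the ICG arrays were the lowest. Prim2, Pold1, Pole2, Pold3 and Pola2 fell by 0.31 to 0.72. With the mean of all probe sets Pola2 was at -0.02 and no longer called (limma adjusted p = 0.902), and Pola1 was at -0.44 and still called. Pold2 read 7.68, 7.70 and 7.83 with DMSO and 7.64, 7.69 and 7.47 with ICG.

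Of the 5 nucleotide genes 4 fell with ICG, with a median of -0.91. Rrm2 is the small subunit of ribonucleotide reductase, which makes deoxynucleotides, and is the subunit whose level follows S phase. It read 8.82, 9.29 and 9.69 with DMSO, 9.61, 9.40 and 8.98 with PHA, and 6.59, 5.76 and 5.73 with ICG. The fold change of -3.24 ± 0.27 (limma adjusted p = 3.38e-05) was the largest of the 48 members and a 9.44-fold lower level. Its partner Rrm1, the large subunit, read 8.81, 9.01 and 9.14 with DMSO and 8.14, 7.94 and 8.16 with ICG, and fell by only 0.91 ± 0.11.

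Thymidine kinase (Tk1), which recycles thymidine, read 6.58, 7.20 and 7.47 with DMSO and 4.98, 4.48 and 5.67 with ICG. Its arrays spread more than those of most members, yet the groups did not overlap and the fold change was -2.04 ± 0.30 (limma adjusted p = 0.000784). Dut, which removes dUTP, read 8.91, 9.07 and 9.11 with DMSO and 8.76, 8.80 and 8.39 with ICG, and fell by 0.38 ± 0.12 with a limma adjusted p of 0.0365 that other normalizations did not keep (0.0602 after quantile normalization). Thymidylate synthase (Tyms) had low signal, at 4.59 to 4.90 with DMSO and 4.01 to 4.49 with ICG, and its fold change of -0.54 ± 0.19 did not pass the test (limma adjusted p = 0.062).

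Both methylation maintenance genes fell. Uhrf1 recognises hemimethylated DNA behind the fork and recruits Dnmt1, the methyltransferase. Uhrf1 read 8.12, 8.31 and 8.46 with DMSO, 7.96, 7.89 and 7.62 with PHA, and 6.23, 5.80 and 5.28 with ICG, and its ICG fold change was -2.53 ± 0.20 (limma adjusted p = 2.64e-05), a 5.77-fold lower level. Dnmt1 read 10.02, 10.15 and 10.13 with DMSO and 9.57, 9.32 and 9.49 with ICG, a fold change of -0.64 ± 0.08 (limma adjusted p = 0.000238). For both genes the 3 groups of the first set were separate, with PHA between DMSO and ICG.

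Of the 37 calls with ICG 28 were kept under every alternative tried and 33 whichever array was left out. The members have 107 probe sets in all, and of the 44 not used for members called with ICG 36 had the same sign as the probe set used and 8 the opposite sign. Those 8 belong to Cdc45, Mcm10, Mcm3, Mcm5, Pola1, Pola2 and Prim2, have mean levels of 3.62 to 6.10 and fold changes of 0.01 to 0.34.

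Beyond the members, of 54 further replication, checkpoint, chromatin assembly and nucleotide genes 24 fell with ICG, 7 rose and 23 did not pass the test, with a median of -0.11. Of all genes tested 15% were called lower and 11.9% higher. Of 14 genes of origin firing and the checkpoint 7 fell and 3 rose; Clspn, an adaptor of the checkpoint kinase Chek1, had a fold change of -1.46, Cdc7, the kinase that fires origins, -1.15, Topbp1 -1.14 and Chek1 -1.06. Of 14 further fork genes 10 fell and 1 rose, among them Dscc1 (-1.71), Atad5 (-0.77) and Chtf18 (-0.76), which load or unload the clamp, and the nuclease Dna2 (-0.63). Of 6 chromatin assembly genes 3 fell, namely Hells (-1.30), Asf1b (-1.01) and Slbp (-0.22). Of 20 further genes of nucleotide synthesis 4 fell and 3 rose, near the shares of all genes, with a median of -0.04. Among them Dck (-0.70), which salvages deoxycytidine, Samhd1 (-0.58), which degrades deoxynucleotides, and Paics (-0.44) fell, and Atic rose (0.37).

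Markers of other programmes and cell types moved beside the members with ICG. Of 29 mitosis genes 26 fell, with a median of -1.16. Of 12 fibroblast markers 11 fell, with a median of -1.39, and their mean level was 10.6 to 11.2 with DMSO, 9.93 to 10.05 with PHA and 9.21 to 9.84 with ICG. Of 12 leukocyte markers 7 fell, with mean levels of 9.77 to 10.2 with DMSO and 8.99 to 9.30 with ICG, while of 12 epithelial markers 4 fell and 3 rose, with a median of 0.09. Of 8 endothelial markers 1 rose and 0 fell, and of 5 adipocyte markers 1 rose and 2 fell. Beside all these counts, 15% of all genes tested were called lower and 11.9% higher. On this scale no marker is listed at 0. The part of these cell types in the result was not tested, and in bulk RNA fewer cells of a type and less RNA per cell cannot be told apart.

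**Figure D3:**
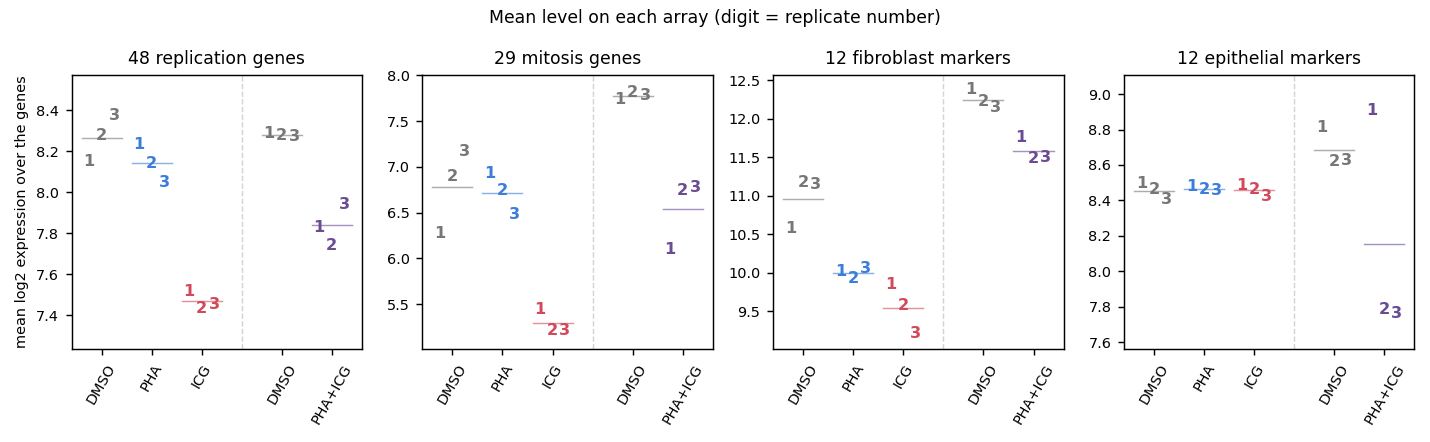
Mean log2 expression (y axis, each panel with its own range) over 48 replication genes, 29 mitosis genes, 12 fibroblast markers and 12 epithelial markers on each array; the digit is the replicate number, bars are group means, and a dashed line parts the first set from the second. Replication genes and mitosis genes are lowest on the 3 ICG arrays, fibroblast markers have their highest mean with DMSO and their lowest with ICG, and epithelial markers differ little in the first set but split between array 1 and the others with PHA+ICG.

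PHA was accompanied by small differences in few members, mostly in licensing. Of the 48 members 7 fell, 0 rose and 41 did not pass the test, where 7.07% of all genes tested were called lower and 3.14% higher. The median was -0.09, against 0.02 for all genes, and 12 members had all PHA arrays below all DMSO arrays, as 16.2% of all genes did. Of the 7 genes 5 belong to licensing (Cdt1, Mcm3, Mcm4, Mcm6 and Mcm7), 1 to the fork (Gins1) and 1 to methylation maintenance (Dnmt1), and 0 to the polymerases or nucleotide supply.

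Cdt1 was the clearest of them. Its PHA arrays read 10.34, 10.21 and 10.15, all below the 10.63, 10.67 and 10.76 of DMSO, a fold change of -0.45 ± 0.07 (limma adjusted p = 0.00329). Gins1 read 6.53, 6.62 and 6.60 with PHA against 6.90, 7.00 and 7.29, a fold change of -0.48 ± 0.09 (limma adjusted p = 0.0115). These were the 2 calls kept whichever array was left out. A second probe set of Cdt1 gave -0.58, while averaging the probe sets of Gins1 took it to -0.22 (limma adjusted p = 0.137).

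The helicase subunits differed from DMSO by similar small amounts with PHA. Mcm7 read 9.92, 9.84 and 9.67, a fold change of -0.37 ± 0.08 (limma adjusted p = 0.016), Mcm4 read 9.85, 9.78 and 9.61, a fold change of -0.31 ± 0.07, and Mcm3 read 8.75, 8.65 and 8.46, a fold change of -0.31 ± 0.09. Mcm6 had a fold change of -0.46 ± 0.13 (limma adjusted p = 0.0484). In these 4 genes every PHA array lay below every DMSO array. With the mean of all probe sets Mcm3 (-0.11, limma adjusted p = 0.319), Mcm4 (-0.28, limma adjusted p = 0.0932) and Mcm6 (-0.36, limma adjusted p = 0.0702) were not called, and in all the call on Mcm3 was lost under 12 of 16 alternatives, that on Mcm6 under 11 and that on Mcm4 under 8. Mcm2 (-0.34 ± 0.12) and Mcm5 (-0.30 ± 0.18) were not called. Dnmt1 read 9.88, 9.80 and 9.78, a fold change of -0.28 ± 0.08 (limma adjusted p = 0.046). Of the 6 members that differed most with ICG, Mcm6 was called with PHA and 5 were not: besides Mcm5, Rrm2 had 0.06 ± 0.27, Cdc6 -0.14 ± 0.16, Tk1 -0.37 ± 0.30 and Uhrf1 -0.47 ± 0.20.

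All 7 calls with PHA were lost when the spread was pooled over all 15 arrays, a fit in which the wider second set enters the error of the first. Without DMSO array 3, DMSO array 2, PHA array 2, PHA array 3 or ICG array 3, which enters only the spread, the count was 2, 3, 3, 2 and 4. Of all genes 6.65%, 5.84%, 5.52%, 7.02% and 9.84% were called in those fits, against 10.2% in the main fit and 1.0% with the pooled spread. Beside these members 8 of 12 fibroblast markers fell with PHA, with a median of -0.69, and 2 of 12 leukocyte markers fell, and their part in the result was not tested. Of the 29 mitosis genes 0 were called by limma with PHA, and the median was -0.06. None of the 29 had an unadjusted p under 0.05, where 4634 of the 18193 genes tested did. Averaged over these 29 genes, DMSO arrays lay between 6.27 and 7.16 and PHA arrays between 6.48 and 6.93. This spread of the DMSO arrays limits what the count of mitosis genes can show. Among the 54 further genes 6 fell, among them Timeless (-0.43), a fork protection factor, Rnaseh2b (-0.36), Dctd (-0.41) and Cad (-0.34), and 2 rose, Rnaseh2c (0.39) and Pole4 (0.34). With PHA 7.07% of all genes tested were called lower and 3.14% higher.

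The direct comparison of ICG with PHA, over the same 9 arrays, called 34 members lower and 2 higher with ICG, where 13.7% of all genes were called lower and 13.4% higher. The median difference was -0.57, against 0.00 for all genes. Rrm2 was lower with ICG than with PHA by -3.30 ± 0.27, Mcm5 by -2.37 ± 0.18, Uhrf1 by -2.06 ± 0.20, Mcm6 by -1.87 ± 0.13 and Cdc6 by -1.86 ± 0.16. All 6 Mcm subunits were lower with ICG, Mcm7 by the least (-0.27 ± 0.08, limma adjusted p = 0.0269). The call on Mcm7 was lost when PHA array 1, PHA array 2 or ICG array 3 was left out (adjusted p up to 0.106).

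Both members higher with ICG than with PHA are licensing factors. Cdt1 differed by 0.37 ± 0.07 (limma adjusted p = 0.00344) and Orc5 by 0.79 ± 0.08. Orc5 read 7.72, 7.66 and 7.78 with PHA, below every DMSO array, but its PHA fold change of -0.25 ± 0.08 did not pass the test (limma adjusted p = 0.0947). The 3 groups of the first set therefore lay in the order PHA, DMSO, ICG for Orc5, and by their means in the order ICG, PHA, DMSO for all 6 Mcm subunits.

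With PHA+ICG, in the second set, most members lay below DMSO but few passed the test. Of the 48 members 6 fell (Mcm5, Mcm6, Lig1, Rrm1, Tk1 and Uhrf1), 1 rose (Orc5) and 41 did not pass, where 2.02% of all genes tested were called, 1.54% lower and 0.478% higher. The median was -0.39, against 0.00 for all genes. For 26 members all PHA+ICG arrays lay below all DMSO arrays, and for 5 all lay above, as they did for 11% and 7.33% of all genes. A limma unadjusted p under 0.05 was found for 26 members and for 2426 of the 18193 genes tested. Averaged over the members, DMSO arrays lay between 8.27 and 8.29 and PHA+ICG arrays between 7.74 and 7.94.

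In the second set the deviations from the group means went together for arrays of 1 number, with correlations of 0.61, 0.36 and 0.28, so a fit with the replicate number as a block is given beside the fit without it. With the block 18 members fell and 2 rose, where 6.01% of all genes were called lower and 1.92% higher. The 12 members added on the lower side were Mcm3, Mcm4, Orc6, Cdc45, Gins2, Rfc3, Rfc4, Rpa2, Pola1, Prim1, Prim2 and Rrm2, and Dut was added on the higher side. All 18 had also fallen with ICG, which is 51.4% of the 35 that fell there. Without arrays numbered 1 of both groups, an alternative chosen after seeing the data, and without the block, 9 members fell and 1 rose. In that fit 4.87% of all genes were called, 753 genes lower and 133 higher.

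Mcm5 differed most among the members called. It read 8.61, 8.60 and 8.69 with DMSO and 6.84, 6.51 and 7.27 with PHA+ICG, a fold change of -1.76 ± 0.21 (limma adjusted p = 0.00846, with the block 0.000313). Mcm6 read 8.49, 8.21 and 8.39 with DMSO and 6.88, 7.00 and 7.41 with PHA+ICG, a fold change of -1.27 ± 0.19 (limma adjusted p = 0.017). Both treated groups lay wholly below their controls. Mcm3 (-0.74) and Mcm4 (-0.95) were not called in this fit and were called with the block and with the pooled spread, and Mcm7 (-0.43) was called in none of these. Mcm4 was also called without arrays numbered 1 (limma adjusted p = 0.0362) and when both sets were fitted together with a weight for each set.

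Mcm2 had the highest fold change of the 6 subunits. It read 9.16, 9.51 and 9.25 with DMSO and 9.23, 9.45 and 9.47 with PHA+ICG, overlapping groups with a difference of 0.07 ± 0.17 (limma adjusted p = 0.946). A second, dimmer probe set of Mcm2 gave -0.31. Orc5 read 8.34, 8.08 and 7.67 with DMSO and 9.16, 9.25 and 9.10 with PHA+ICG. Its treated arrays lay close together above controls that were spread widely, and it rose by 1.14 ± 0.20 (limma adjusted p = 0.0304, with the block 0.00299). Cdc6 read 6.13, 5.18 and 5.03 with DMSO and 3.99, 4.09 and 4.95 with PHA+ICG, and its fold change of -1.10 ± 0.35 did not pass the test (limma adjusted p = 0.188, with the block 0.0544).

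In nucleotide supply 2 of 5 members fell. Tk1 read 7.45, 7.25 and 7.29 with DMSO and 5.86, 6.04 and 5.93 with PHA+ICG, a fold change of -1.39 ± 0.15 (limma adjusted p = 0.00745). It was the 1 call kept whichever array was left out. The call was lost (limma adjusted p = 0.28) when both sets were fitted together with a weight for each set, not for each array. In that fit the spread of the first set enters the error. Rrm1 read 9.63, 9.57 and 9.53 with DMSO and 8.56, 8.45 and 8.74 with PHA+ICG, a fold change of -0.99 ± 0.15. These groups were tight and separate. Rrm2 read 8.99, 9.40 and 9.26 with DMSO and 7.37, 8.16 and 8.36 with PHA+ICG, a fold change of -1.25 ± 0.27 that was not called here (limma adjusted p = 0.06, with the block 0.00216). It also passed with the mean of its probe sets (-1.16, limma adjusted p = 0.0342), without arrays numbered 1 (-1.07, limma adjusted p = 0.0157) and with the spread pooled over all arrays.

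Dut went the other way. It read 9.44, 9.78 and 9.77 with DMSO and 10.08, 10.38 and 10.38 with PHA+ICG, a difference of 0.61 ± 0.17 that was not called here (limma adjusted p = 0.143) and passed with the block (0.0376) and with the pooled spread. Every treated array lay above every control array, whereas with ICG the treated arrays had lain below the controls. A second probe set of Dut, with a mean level of 4.92, gave -0.07 with PHA+ICG and -0.09 with ICG. The mean of both gave 0.27 with PHA+ICG (limma adjusted p = 0.371) and -0.23 with ICG.

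At the fork Lig1 read 7.78, 7.70 and 7.62 with DMSO and 6.63, 6.57 and 6.91 with PHA+ICG, a fold change of -1.0 ± 0.16 (limma adjusted p = 0.0231). Of the 9 polymerase genes 0 were called by limma without the block and 4 had an unadjusted p under 0.05. Pola1 (-0.94), Prim1 (-0.64) and Prim2 (-0.63) passed with the block and with the pooled spread but not in this fit, while Pole2 (0.01) and Pole (-0.30) did not pass with or without it. Uhrf1 read 8.39, 8.40 and 8.30 with DMSO and 6.49, 7.45 and 7.28 with PHA+ICG, a fold change of -1.29 ± 0.25 (limma adjusted p = 0.0451, with the block 0.00368). The call on Uhrf1 was lost under 8 of 14 alternatives. Among them were quantile normalization (limma adjusted p = 0.111), median centring (0.0822) and the fit of both sets with a weight for each set (0.128).

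None of the 7 calls with PHA+ICG was kept under every alternative, and they turn on single arrays: without DMSO array 2 or 3 the count was 2 and 1, and without PHA+ICG array 2 or 3 it was 4 and 3. Calls over all genes fell in the same fits, to 0.368%, 0.308%, 1.04% and 0.489%, against 2.02% in the main fit. Of the 29 mitosis genes 15 fell with PHA+ICG, with a median of -1.16. Of the 54 further genes 1 fell, the clamp loader gene Dscc1 (-1.24 ± 0.23, limma adjusted p = 0.0422), and 0 rose. Of 12 fibroblast markers 2 fell, with mean levels of 12.1 to 12.4 with DMSO and 11.5 to 11.8 with PHA+ICG. Of 12 leukocyte and of 12 epithelial markers 0 were called by limma, and their medians were -0.84 and -0.46. The part of these cell types in the result was not tested.

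ICG and PHA+ICG share no arrays, so their values can be set side by side. Of the 35 members that fell with ICG, 32 were below 0 with PHA+ICG. Across the 48 members both fold changes had the same sign for 42 (87.5%), against 67.1% of all genes, and Pearson's r was 0.85 and Spearman's rho 0.87, against 0.62 and 0.52 over all genes. These are correlations across genes, which are not independent replicates. The fold change was smaller in size with PHA+ICG for 33 of the 48 members (68.8%), against 44.3% of all genes. These shares are not like for like. The residual SD of the second set was 2.22 times that of the first, which enlarges small fold changes there. Members were also called with ICG more often than other genes. Between both DMSO groups 27 members lay higher in the second set and 21 lower, with a median difference of 0.05 and a range from -0.98 for Cdc6 to 0.86 for Rfc4, and 9 members differed by over 0.5 either way. These levels were not tested because whether both sets were normalized together is not given in the sources used here.

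**Figure D4:**
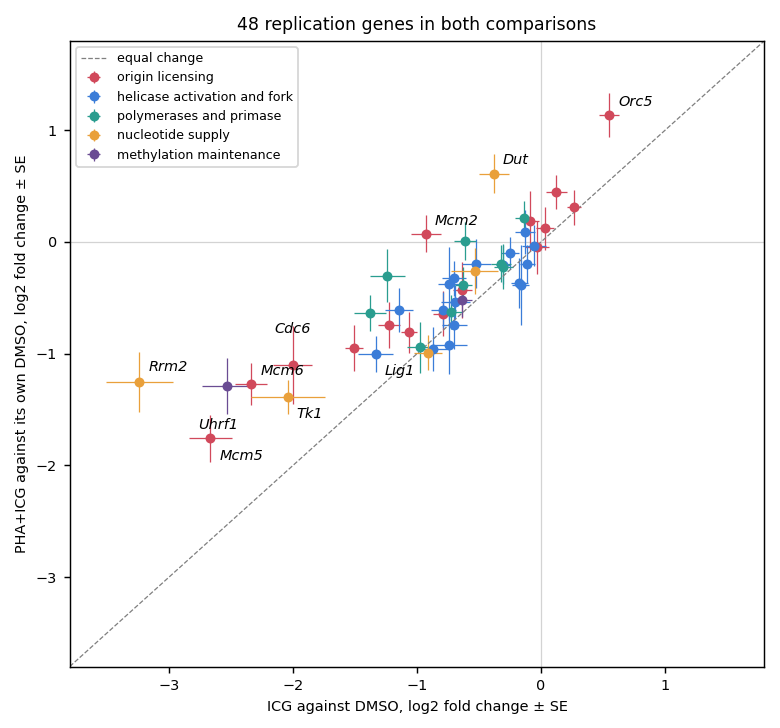
Log2 fold change with ICG (x axis) against that with PHA+ICG (y axis), each against its own DMSO with SE, for 48 replication genes coloured by role; the dashed line is equality. Most points at the lower left lie above the line, with Rrm2 at -3.24 and -1.25, while Rrm1, Cdc45 and Pola1 lie close to it and Orc5 at 0.55 and 1.14.

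The difference between both effects was fitted over all 15 arrays with a separate spread for each set. Of the 48 members 0 were called by limma, where 0.385% of all genes were called. An unadjusted p under 0.05 was found for 11 members and for 1286 of the 18193 genes tested. None of those 11 members was lower with PHA+ICG, while 826 of those 1286 genes were. The median difference was 0.25, against -0.03 for all genes. Differences above 0 were found for 40 of 48 members and for 8195 of the 18193 genes. They were also found for 39 of the 54 further replication and nucleotide genes (median 0.18) and 16 of 29 mitosis genes (0.11). Of 12 markers each, 10 fibroblast (median 0.52), 6 leukocyte (-0.07) and 1 epithelial (-0.60) lay above 0. Among the members the largest was that of Rrm2, 1.98 with a 95% interval of 0.69 to 3.27 (limma adjusted p = 0.27). Uhrf1 differed by 1.24 (0.25 to 2.23), Mcm6 by 1.07 (0.43 to 1.71), Mcm2 by 1.0 (0.42 to 1.58) and Dut by 0.99 (0.41 to 1.58). With the mean of all probe sets Rrm2 differed by 1.54, Uhrf1 by 0.86, Mcm6 by 0.70, Mcm2 by 0.95 and Dut by 0.50.

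For members that lay close to equality the intervals were also wide. Rrm1 differed by -0.08 ± 0.26, Cdc45 by -0.08 ± 0.32, Pola1 by 0.03 ± 0.28 and Rfc3 by -0.04 ± 0.27. How many members passed depended on how the spread was modelled: with a weight for every array 14 were called, all higher, among them Mcm2, Mcm6, Cdc6 and Rrm2, where 9.05% of all genes were called and 2.58% were called higher. With the spread pooled over all arrays 4 were called, namely Mcm2, Mcm6, Rrm2 and Dut, where 0.879% of all genes were called.

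Against the effect of PHA, that of PHA+ICG was higher for Orc5 by 1.38 (limma adjusted p = 0.00384) and lower for Orc6 (-0.78, limma adjusted p = 0.0364), and no other member was called, where 2.74% of all genes were called, 1.66% lower and 1.08% higher. The median difference was -0.32. Among the 6 origin recognition subunits Orc5 had the highest and Orc6 the lowest fold change with ICG, with PHA+ICG and in ICG against PHA.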

How the data were processed

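The deposited values are log2 expression of 45101 probe sets on 15 arrays, used as the authors deposited them; the submitters' processing notes name MAS5 and RMA without versions or roles. Probe sets were named through the platform's annotation, and the 34945 that carried a single symbol were used. Left out of the tests were 9160 with no symbol, 932 with several symbols and 64 controls. The probe set with the highest mean was used for each gene.

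Each title code was fitted alone with limma 3.58.1 (lmFit and eBayes) in R 4.3.3, since the residual SD of the second was 2.22 times that of the first; differences between effects were fitted over 15 arrays with array weights per title code. Adjusted p-values are Benjamini-Hochberg over 18193 genes. Fold changes are treated minus DMSO. The procedure was tested on simulated data. Deviations of arrays with the same number correlated at -0.26 to 0.12 in the first set, which was not paired. In the second set all such correlations exceeded 0.1, so a fit with the replicate number as a block is given as well. The main PHA+ICG calls come from the fit without the block. Arrays 2 and 3 also correlated across numbers (0.24 and 0.35), and the labels name no pairs.

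The members, lists and tests were chosen with earlier results of these data known. Genes given with every array are, in each role, those with the 3 largest ICG fold changes (2 in roles of 5 genes or fewer) and the smallest, Mcm2 to Mcm7, and members called in different directions. Orc2, Orc5, Rrm1 and Gins1 were added after their values were seen, and Orc6 is also given although it meets none of these rules. Some genes of the written lists, such as Rbbp8, Chaf1a, Ccnb1 and Plin1, are not analysed here. Alternatives were another spread, array weights, quantile normalization, median centring, the mean of all probe sets, leaving out the dimmest 25% of genes, a replicate block and leaving out each array. The array weights were set per title code, over the arrays of both sets, for comparisons within a set. They were set per array for differences between effects. Python 3.11.15 with pandas 2.3.3, numpy 2.4.6 and matplotlib 3.10.9 made tables and figures.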

Additional observations from a re-analysis of the deposited data

How the results depend on the processing

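The counts of members called for ICG against DMSO (37) and ICG against PHA (36) stayed within 1.5 times of these values under every alternative run. The lowest for ICG against DMSO was 28, with the spread pooled over all arrays, where 6.9% of all genes were called. For PHA against DMSO (7 called) the count was 0 with the pooled spread, 4 after quantile normalization, 4 after median centring (1 higher, 3 lower), 3 with the replicate block, which is no pairing in the first set, and 2 to 8 when an array was left out. In the same order 1.0%, 10.9%, 11.7%, 6.61% and 5.52% to 9.84% of all genes were called, against 10.2% in the main fit. For PHA+ICG against DMSO (7 called) the count of members was 27 with the pooled spread (13.3% of all genes) and 20 with the replicate block (7.93%). It was 1 to 6 when an array was left out (0.308% to 2.14%). For the difference between the effects of PHA+ICG and ICG (0 called) it was 4 with the pooled spread (0.879% of all genes called) and 14 with array weights (9.05%). It was 1 with the mean of all probe sets (0.517%) and 0 to 1 when an array was left out (0.0055% to 0.792%). For the difference between the effects of PHA+ICG and PHA (2 called) it was 6 with the pooled spread (4.73% of all genes) and 16 with array weights (19%). It was 6 with the mean of all probe sets (3.47%) and 1 to 3 when an array was left out (0.819% to 3.95%). The pooled spread is wider than that of the first set alone and narrower than that of the second, and the cause of the other shifts was not tested. No called gene reversed its direction. Signal limits Tyms, the 1 member among the dimmest 25% of genes.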
